A study of Mus musculus with 6 samples.

Results

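Transcripts of 7 complement components and regulators were followed through the uterine luminal layer and the blastocyst of mice that lacked *Lif* in the uterine epithelium. The members, *C3*, *Cfb*, *C2*, *C4b*, *Cfi*, *Cd55* and *Cd59a*, were chosen by name from the 23420 genes of the deposited tables. All 7 were present in both tables, and each occupied 1 row. The tables held 6 libraries, 1 per group, from tissues taken at 8 pm on day 4 of pregnancy. Control females were labelled Lif-floxed/floxed and PBS. *Lif* eKO females (Lif-floxed/floxed Ltf-Cre/+) carried a Cre recombinase driven by the lactoferrin promoter, which is active in uterine epithelium, and were labelled PBS. The third group held *Lif* eKO females given recombinant Lif (rLif) intraperitoneally, 20 µg per head at 10 am and at 6 pm, and dissected 2 h after the last dose. The luminal layer had been cut out by laser microdissection, and blastocysts, labelled Lif-floxed/+ in all 3 groups, had been flushed from the horns. RNA or blastocysts of several animals were pooled before sequencing, so that no group had a replicate, and the ages of the animals are not given in the sources used here.

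Complement is a cascade of plasma and tissue proteins that tags surfaces for removal and can pierce membranes. The classical pathway starts at C1q and works through C4 and C2, the alternative pathway amplifies through factor B, and both meet at C3, whose cleavage places C3b on nearby surfaces. Host cells are shielded by membrane proteins such as CD55, which breaks up the enzymes that cleave C3, and CD59, which blocks the final pore, and by soluble inhibitors such as factor I, which cuts C3b and C4b. In the rodent uterus C3 is known as a secreted, estrogen-responsive product of the epithelium.

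Libraries held 18996158 to 28460465 counts. Values are given as raw counts, as CPM (counts per 1000000, on library sizes scaled by TMM, the trimmed mean of M-values) for comparing libraries, or as TPM (counts divided by exon length and brought to the same sum in every library) for comparing genes. Intervals are exact 95% intervals and cover counting error only. A ratio of 2 libraries was called when its interval lay wholly beyond a 2-fold change (log2 ratio of 1 in either direction), which compares 2 libraries and says nothing of the spread between animals. *Lif* itself had 0, 28 and 0 counts in the luminal libraries of control, eKO and rLif-treated eKO. The paper places *Lif* before attachment in the glands, and only part of the gene is flanked by loxP sites in its mice. Counts per gene do not separate that part, so these counts cannot check the eKO label in either direction. The luminal libraries are therefore named by their labels, and each luminal direction given here rests on those labels. In blastocysts *Lif* had 1447, 1736 and 1250 counts. All 10 luminal epithelium markers listed had reads in the luminal libraries, with summed levels of 11594 to 13795 CPM, and the gland factor *Foxa2* had 3, 0 and 10 counts. The 7 gland markers summed to 1085, 1720 and 2544 CPM in the control-labelled, eKO-labelled and rLif-treated luminal libraries. *Sox17*, which was also listed as a marker of primitive endoderm, gave 1074, 1706 and 2519 of these CPM. Each of the other gland markers had at most 12.1 CPM in a luminal library. Of the 7 gland markers, 3 were called higher with rLif than in eKO, where 7.88% of all genes were. Against control 2 were called higher with rLif, where 4.12% of all genes were. The part of gland in the luminal results was not tested. Blastocyst libraries held the 6 inner cell mass markers at 758 to 1004 CPM and the 7 trophectoderm markers at 6923 to 7391 CPM.

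The level of the members differed widely within the control luminal library. *Cd55* stood highest at 289 TPM, a level that 2.72% of all genes exceeded. *Cd59a* followed at 81.3 TPM and *Cfb* at 34.4 TPM. *Cfi* (10.1 TPM), *C3* (9.28 TPM) and *C2* (4.25 TPM) lay lower, and *C4b* was near absence at 0.0257 TPM. The membrane shields thus lay above every soluble component of the set in that library. In the eKO-labelled library the order changed, with *Cd59a* first at 90.3 TPM, *Cd55* second at 62.5 TPM and *C3* sixth at 0.526 TPM. With rLif *Cd55* was first again at 154 TPM, and *Cd59a* (53.8 TPM) and *Cfb* (52.9 TPM) lay side by side. Summed over the 7 members, the luminal level was 429 TPM in the control-labelled, 181 TPM in the eKO-labelled and 279 TPM in the rLif-treated library. Most of each sum came from *Cd55* and *Cd59a*. Without them the sums were 58.0, 28.5 and 70.9 TPM, highest with rLif.

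**Figure D1:**
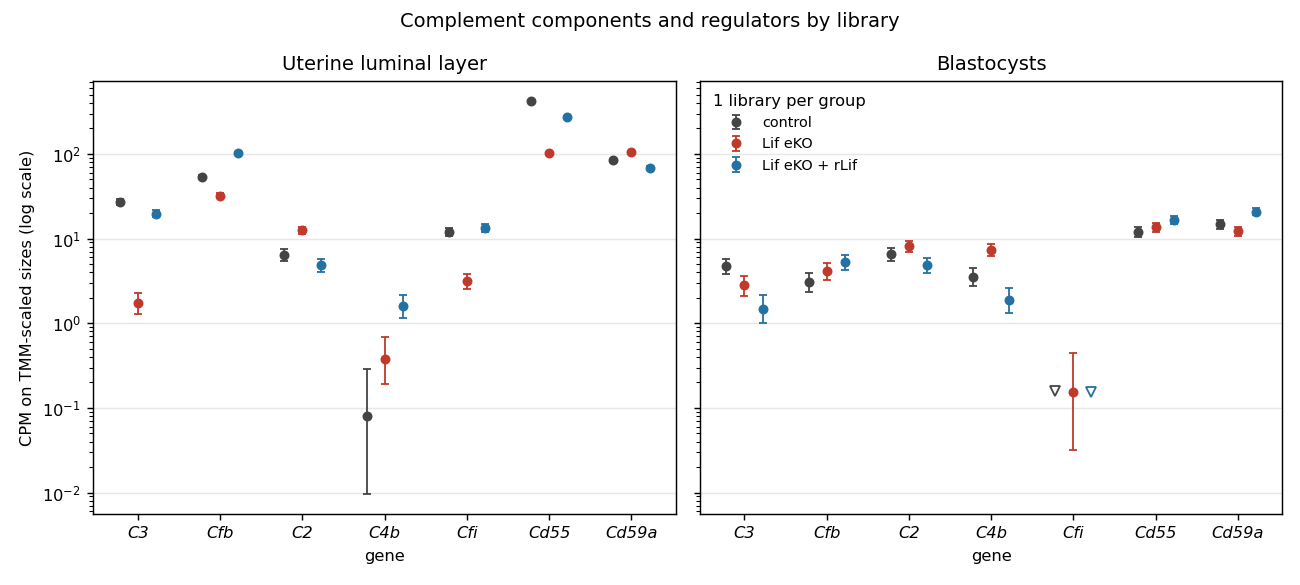
CPM (log axis) of the 7 members in the uterine luminal layer and in blastocysts, with 1 point per library, colored by the label of its group, and exact Poisson 95% intervals as bars. Open triangles mark libraries with 0 counts, drawn at the floor of 3 counts. In the luminal layer *C3* sits at 27.2 and 19.8 CPM in control and rLif-treated eKO and at 1.74 CPM in eKO.

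*C3*, the protein on which all activation routes meet, had the widest luminal difference of the members between the eKO-labelled and control-labelled libraries. It lies on chromosome 17, from 57203973 to 57228136 on the minus strand (GRCm38/mm10, exon bounds in the deposited tables). Its luminal counts were 687 (control-labelled), 50 (eKO-labelled) and 515 (rLif-treated), or 27.2, 1.74 and 19.8 CPM. The eKO value stood below the others, with intervals that did not overlap. *C3* was 15.6-fold lower in the eKO-labelled library than in control (log2 ratio -3.97, interval -4.41 to -3.55). Of the genes with reads in both libraries, 1.00% had a ratio at or below it. With rLif it was 11.4-fold higher than in the eKO-labelled library (log2 ratio 3.51, interval 3.09 to 3.96), and it remained below control by a log2 ratio of -0.46 (interval -0.63 to -0.29), which was not called.

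*Cfb* encodes factor B, the protease that joins C3b in the alternative pathway. It lies on chromosome 17, from 34856374 to 34862514 on the minus strand. Its luminal counts were 1361, 923 and 2640, or 53.9, 32.1 and 101 CPM, so that the rLif-treated library was the highest and the eKO-labelled one the lowest. The ratio of eKO to control was not called (log2 ratio -0.75, interval -0.87 to -0.62). *Cfb* was called 3.15-fold higher with rLif than in the eKO-labelled library (log2 ratio 1.66, interval 1.55 to 1.77). Against control the rLif-treated library was higher by a log2 ratio of 0.91, with an interval of 0.82 to 1.01 that reached past the limit, and it was not called.

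*C2*, the classical pathway counterpart of factor B, went the other way. It neighbors *Cfb* on chromosome 17, from 34862602 to 34882100 on the minus strand, with 87 bases between them, and the rows of the pair shared no exon base. *C2* had 162, 359 and 127 luminal counts, or 6.42, 12.5 and 4.88 CPM. The eKO-labelled library was the highest, with a log2 ratio of 0.96 against control (interval 0.69 to 1.24, not called). *C2* was called 2.56-fold lower with rLif than in the eKO-labelled library (log2 ratio -1.36, interval -1.66 to -1.06). The stroma markers, of which 10 of 10 were found and none was at 0, were in sum also highest in the eKO-labelled library, at 857, 1304 and 887 CPM. *Col3a1* had 227, 501 and 320 of these CPM. *Hand2* (15.8, 14.3 and 21.8 CPM) and *Pdgfrb* (14.1, 14.9 and 19.1 CPM) were highest with rLif. Of the 10, 1 was called higher in eKO than in control, where 8.08% of all genes were called higher. The part of stroma in the *C2* ratios was not tested. *C1s* and *C1ra*, proteases of the C1 complex, were also highest in the eKO-labelled library, with 45.6, 77.7 and 46.6 CPM for *C1s* and 9.82, 13.1 and 7.91 CPM for *C1ra*, and neither was called in a luminal comparison. In bulk tissue, fewer cells of a type and less RNA per cell cannot be told apart.

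*C4b*, the component that C1s cleaves, was scarce in the luminal layer. It lies on chromosome 17 as well, from 34728381 to 34743897 on the minus strand, and had 2, 11 and 42 luminal counts. The rLif-treated library was the highest, with 1.61 CPM (interval 1.16 to 2.18) against 0.0792 CPM in control (interval 0.00959 to 0.286). The call against control (log2 ratio 4.35, interval 2.41 to 7.44) rests on 2 counts in the control library. Against the eKO-labelled library *C4b* was 4.21-fold higher with rLif (log2 ratio 2.07, interval 1.09 to 3.18), and this call was lost when libraries were scaled by total counts (log2 ratio 1.97). *C4a*, a near-identical copy in the tables, had 8, 4 and 10 luminal counts, and how reads that match both copies were counted is not given in the sources used here. With the counts of the pair summed, the luminal log2 ratios were 0.40 (eKO to control), 2.33 (rLif-treated eKO to control) and 1.94 (rLif-treated eKO to eKO). Direction and calls were the same, and both ratios to control were much smaller.

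*Cfi* encodes factor I, the soluble protease that inactivates C3b and C4b with the help of cofactors. It lies on chromosome 3, from 129836739 to 129875328 on the plus strand. Its luminal counts were 301, 90 and 351, or 11.9, 3.13 and 13.5 CPM. The eKO-labelled library stood apart below the others, whose intervals overlapped. *Cfi* was called 3.80-fold lower in eKO than in control (log2 ratio -1.93, interval -2.28 to -1.58) and 4.30-fold higher with rLif than in eKO (log2 ratio 2.10, interval 1.77 to 2.46). Between rLif-treated eKO and control its interval spanned 0 (log2 ratio 0.18, interval -0.05 to 0.40).

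*Cd55*, the decay-accelerating shield against C3-cleaving enzymes, was the most abundant member by CPM in the control luminal library. It lies on chromosome 1, from 130439030 to 130462740 on the minus strand, and had 10542, 2922 and 7058 luminal counts (418, 102 and 271 CPM). The 3 intervals did not overlap, with eKO the lowest and rLif-treated eKO in between. *Cd55* was called 4.10-fold lower in the eKO-labelled library than in control (log2 ratio -2.04, interval -2.10 to -1.98) and 2.66-fold higher with rLif than in eKO (log2 ratio 1.41, interval 1.35 to 1.48). It remained 1.54-fold below control with rLif (log2 ratio -0.62, interval -0.67 to -0.58), a ratio that was not called. Its paralog *Daf2* (*Cd55b*) had 38, 9 and 12 luminal counts and was called lower in eKO than in control (log2 ratio -2.26, interval -3.50 to -1.19).

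*Cd59a*, the shield against the membrane pore, varied least of the 7 members in the luminal layer. It lies on chromosome 2, from 104095801 to 104115351 on the plus strand, and had 2120, 3022 and 1767 counts (84.0, 105 and 67.9 CPM). The eKO-labelled library was the highest and the rLif-treated one the lowest, whereas *Cd55* was lowest in the eKO-labelled library. Log2 ratios were 0.33 (interval 0.24 to 0.41) for eKO against control, -0.31 (interval -0.40 to -0.22) for rLif-treated eKO against control and -0.63 (interval -0.72 to -0.55) for rLif-treated eKO against eKO, and none was called. *Cd59b*, a paralog on the same strand nearby, had 34, 100 and 30 counts and the same order of libraries, and none of its luminal ratios was called (log2 ratio 1.37 for eKO against control, interval 0.80 to 1.98).

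Promoter sequences from RefSeq (GRCm38.p6) were held for 3 of the 7 members, *C3* and *Cd55*, which were called in the luminal layer, and *Cd59a*, which was not. They are shown to set the called members beside the uncalled one. Each runs 5′ to 3′ from 250 bases before the start of the gene to 50 bases after it. Capitals mark matches, on either strand, to 6 patterns: Stat (TTC, any 3 bases, GAA), NF-kappaB (GGG, any 5 bases, CC), C/EBP (TTNNGNAA), interferon response (GAAA, any 2 bases, GAAA), and the estrogen (GGTCA, any 3 bases, TGACC) and progesterone (GNACA, any 3 bases, TGTNC) response palindromes.
C3 promoter: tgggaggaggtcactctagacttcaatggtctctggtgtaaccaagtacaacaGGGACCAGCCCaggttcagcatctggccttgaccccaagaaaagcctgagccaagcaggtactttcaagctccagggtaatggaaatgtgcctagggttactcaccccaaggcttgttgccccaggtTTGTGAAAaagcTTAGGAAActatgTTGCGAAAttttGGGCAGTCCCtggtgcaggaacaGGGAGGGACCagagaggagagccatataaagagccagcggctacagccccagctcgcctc
Cd55 promoter: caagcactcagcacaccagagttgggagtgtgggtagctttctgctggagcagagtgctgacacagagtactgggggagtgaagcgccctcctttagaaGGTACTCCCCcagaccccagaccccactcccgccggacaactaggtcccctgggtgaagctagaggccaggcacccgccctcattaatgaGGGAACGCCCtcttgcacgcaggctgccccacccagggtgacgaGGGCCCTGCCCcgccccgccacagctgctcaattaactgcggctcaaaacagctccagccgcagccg
Cd59a promoter: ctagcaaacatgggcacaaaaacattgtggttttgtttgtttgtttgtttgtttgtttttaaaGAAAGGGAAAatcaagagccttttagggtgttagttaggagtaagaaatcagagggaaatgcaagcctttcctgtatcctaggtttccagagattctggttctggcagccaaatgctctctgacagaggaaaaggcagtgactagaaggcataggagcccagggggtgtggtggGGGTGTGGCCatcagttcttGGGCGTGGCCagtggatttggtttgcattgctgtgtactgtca

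The *C3* window (chr17:57228087-57228386, minus strand) held 3 places matching the C/EBP pattern, first bases at -70, -58 and -45 from the start, and NF-kappaB pattern matches at -197, -196, -33 and -10. The matches at -197 and -196 overlap, and those at -33 and, for C/EBP, -45 are found on both strands. The *Cd55* window (chr1:130462695-130462994, minus strand) held NF-kappaB pattern matches at -151, -61, -17 and -16, the last pair overlapping and the one at -61 found on both strands, and none to the other patterns. The *Cd59a* window (chr2:104095551-104095850, plus strand) held 2 NF-kappaB pattern matches, of which 1 began at -13 and 1 lay after the start, and 1 interferon response match at -187. Of 32851 windows of the same length, 50.8% held the NF-kappaB pattern, 40.7% the C/EBP pattern, 8.3% the Stat pattern, 3.44% the interferon response pattern, 0.475% the progesterone response palindrome and 0.07% the estrogen response palindrome. A match is a run of letters and not a measured site, and the absence of the Stat pattern says only that these letters are not in these windows.

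Counted over the luminal comparisons, 3 of the 7 members (*C3*, *Cfi* and *Cd55*) were called between the eKO-labelled and control-labelled libraries, all lower in eKO. Over all genes, 17.2% were called in that comparison, 8.08% higher and 9.15% lower. Between rLif-treated eKO and control 1 member, *C4b*, was called, higher with rLif, where 9.16% of genes were called, 4.12% higher and 5.04% lower. Over all genes, 647 of those calls were higher and 791 lower with rLif, and with total counts for scaling 439 were higher and 1031 lower. Between rLif-treated and untreated eKO 6 of the 7 were called, *C3*, *Cfb*, *C4b*, *Cfi* and *Cd55* higher and *C2* lower with rLif, where 15.6% of genes were called, 7.88% higher and 7.77% lower. The median log2 ratio of the 7 members was -0.75, -0.31 and 1.66 in these 3 comparisons, and that of all genes was 0.00379, 0.011 and -0.00777. The comparisons share libraries, so they are not separate evidence. The members were chosen with earlier results of these data known. Their shares and medians therefore describe the set and are no test of it against all genes. Under edgeR's exact test with a fixed dispersion of 0.1 and the study's limits on fold and false discovery, *Cfi* was no longer called for eKO against control, and *Cfb*, *C2*, *C4b* and *Cd55* were no longer called for rLif-treated eKO against eKO.

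**Figure D2:**
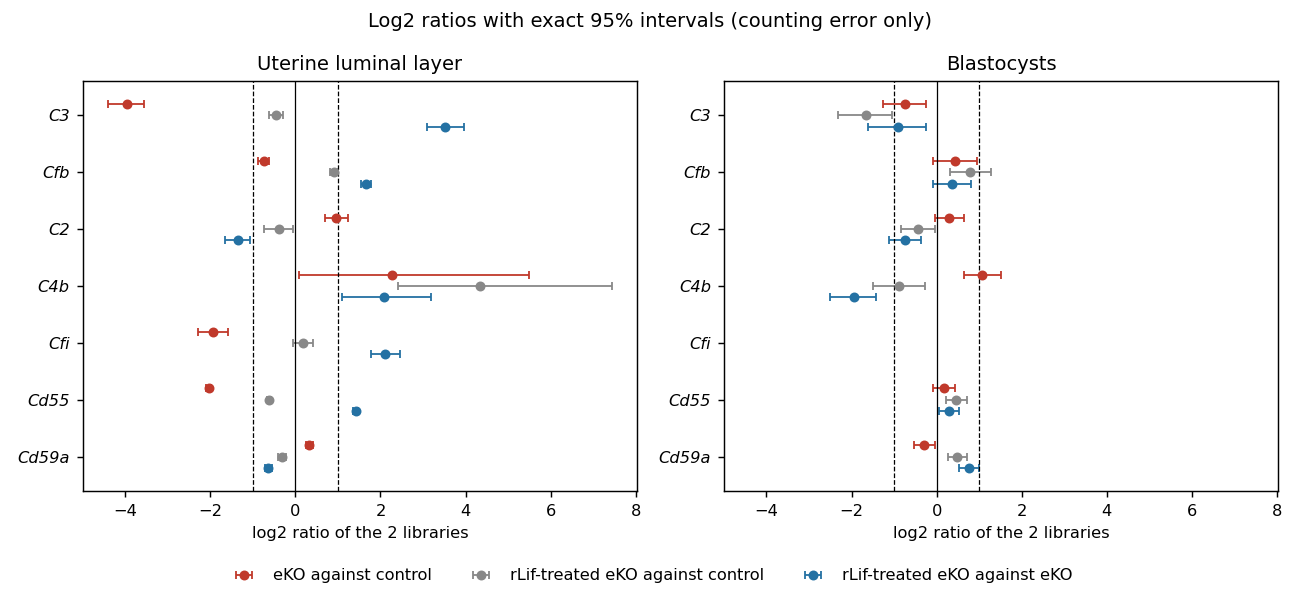
Log2 ratios of the members in 3 comparisons, for the luminal layer and for blastocysts, with exact 95% intervals for counting error as bars. Dashed lines mark a log2 ratio of 1 in either direction, and *Cfi* in blastocysts is not drawn because it did not reach 10 counts. Luminal *C3* lies at -3.97 for eKO against control and at 3.51 for rLif-treated eKO against eKO.

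The rest of the complement system was read from a list of 58 genes, of which 57 were found in the tables and 50 were not members. In the luminal layer 34 of these 50 reached 10 counts. Between the eKO-labelled and control-labelled libraries 6 were called lower and 2 higher, where 17.2% of all genes were called, with a median log2 ratio of -0.20. Between rLif-treated and untreated eKO 4 were called higher and 2 lower, where 15.6% of all genes were called, with a median of 0.65. Between rLif-treated eKO and control 2 were called higher and 1 lower, where 9.16% of all genes were called, with a median of 0.26. In the last 2 of these comparisons the share of the 34 was close to that of all genes. The median of all genes lay within 0.011 of 0 in each luminal comparison.

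Soluble inhibitors made up 4 of the 8 calls between eKO and control and 4 of the 6 calls between rLif-treated and untreated eKO. Apart from *Cfi*, 8 of the 10 soluble regulators found reached 10 counts. Of these 8, 4 were called lower in the eKO-labelled library than in control and higher with rLif than in eKO, *Serping1*, *C4bp* and *Clu* among them. Over all genes, 9.15% were called lower in eKO than in control and 7.88% higher with rLif than in eKO. *Serping1*, the inhibitor of the C1 proteases, had 25571, 4661 and 25473 counts (1013, 162 and 978 CPM). Its control and rLif-treated values lay within a log2 ratio of -0.05 of each other, and its ratio of eKO to control was -2.64 (interval -2.69 to -2.60).

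*C4bp*, the cofactor for the cutting of C4b, had 194, 24 and 281 counts, and its eKO to control ratio was -3.20 on the log2 scale (interval -3.88 to -2.59). *Clu*, or clusterin, which binds the terminal complex, had 6538, 2118 and 6456 counts and a corresponding ratio of -1.81 (interval -1.88 to -1.74). For these 3 genes the eKO-labelled library was the lowest, as it was for *C3*, *Cfb*, *Cfi* and *Cd55*. *Serping1* and *C4bp* were also called for both of these comparisons under edgeR's exact test at a dispersion of 0.1, and *Clu* was not.

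Membrane regulators other than the members did not share 1 direction. Of 6 that reached 10 counts, *Daf2* and *Susd4* were called lower and *Cd46* higher in the eKO-labelled library than in control. In that comparison 9.15% of all genes were called lower and 8.08% higher. *Susd4* had 157, 53 and 78 counts (log2 ratio -1.75, interval -2.23 to -1.29). *Cd46* had 3, 39 and 11 counts, with a log2 ratio of 3.51 (interval 1.86 to 5.85) that rests on 3 counts in control. *Cr1l* (*Crry*), a rodent regulator of C3 cleavage, was as abundant as *Cd59a* in the control library, at 79.3 TPM, and was not called in a luminal comparison, with 1900, 2771 and 2809 counts. *Csmd1* had 33, 44 and 5 counts and was called lower with rLif than in either other library.

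The first components of the classical pathway were abundant in the luminal layer and differed less. *C1qa*, *C1qb* and *C1qc*, which encode the chains of C1q and are typical macrophage transcripts, had 126, 316 and 229 TPM in the control library, all of them above *Cd59a*, and *C1qb* above *Cd55* as well. Between eKO and control they differed by log2 ratios of -0.26, -0.04 and -0.15. With rLif against eKO they were 0.91 (interval 0.82 to 0.99), 0.68 (interval 0.63 to 0.73) and 0.95 (interval 0.89 to 1.01), and none was called. Macrophage and leukocyte markers, 12 of 12 found and none at 0, summed to 1984 CPM in the control-labelled, 2183 CPM in the eKO-labelled and 2616 CPM in the rLif-treated library, most of it from *Cd14* and *Lyz2*. Of the 12, *Emr1*, *Csf1r*, *Cd68* and *Cx3cr1* were lowest in the eKO-labelled library, as were the 3 C1q chains by CPM and *C3*, *Cfi* and *Cd55*. *Ptprc*, *Cd14*, *Itgam*, *Tyrobp*, *Fcer1g*, *Aif1* and *Mrc1* were lowest in control, and *Lyz2* was lowest with rLif. Between control and eKO, *Emr1* (8.64 and 7.97 CPM) and *Csf1r* (9.23 and 8.50 CPM) differed little, and the interval of *C1qb* spanned 0. The part of macrophages and leukocytes in the luminal results was not tested.

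**Figure D3:**
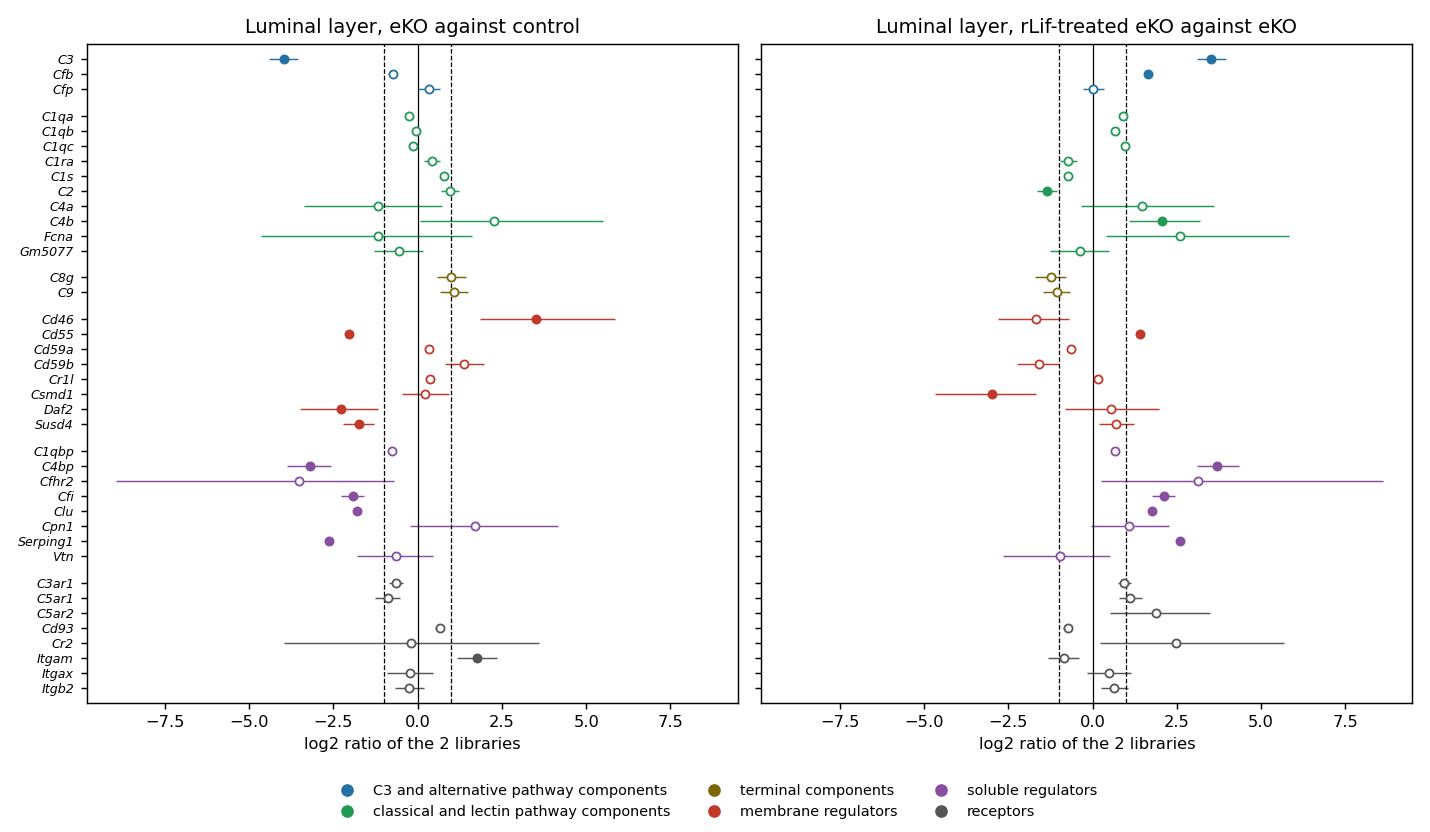
Luminal log2 ratios of listed complement genes with at least 10 counts, grouped by role, for eKO against control (38 genes drawn) and for rLif-treated against untreated eKO (39 genes drawn). Bars are exact 95% intervals for counting error, filled points were called, and genes with 0 counts in either library are among those not drawn. The soluble regulators *Serping1*, *C4bp*, *Clu* and *Cfi* lie below the dashed line at -1 on the left and above the line at 1 on the right.

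Terminal components had low levels. The receptors *C3ar1*, *Cd93* and *C5ar1* had 7.66, 6.65 and 4.48 TPM in the control luminal library, above *C2* (4.25 TPM), and none was called in a luminal comparison. Of the 7 terminal components found, only *C8g* and *C9* reached 10 luminal counts. *C9*, which forms the pore, had 75, 179 and 78 counts (log2 ratio 1.07 for eKO against control, interval 0.67 to 1.48), and *C8g* had 65, 148 and 57 (log2 ratio 1.00, interval 0.57 to 1.44), and neither was called. Among receptors, *Itgam*, a chain of complement receptor 3 on leukocytes, had 32, 122 and 61 counts and was called higher in the eKO-labelled library than in control. *C5ar2* had 0, 6 and 20 counts and was at least 6.46-fold higher with rLif than in control, against a floor of 3 counts in the control library and taking its own count as exact. The exact interval of that ratio began at a log2 ratio of 2.26.

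Genes with the most similar luminal profile were listed for 6 members, *C4b* being under the minimum of 100 counts, by the root mean square difference of log2(CPM + 1) over the 3 luminal libraries, after each gene's mean was subtracted. Among 12844 other genes with at least 100 counts, the nearest to *C3* were *Deptor* (0.0493), *Gnpda1* (0.0613) and *Ttc9* (0.0637), and 22 genes lay within 0.25. Among the nearest to *Cd55* were *Zdhhc13* (0.0276) and *Tlcd1* (0.0366), with 153 genes within 0.25. For *Cfi* they were *Tirap* (0.0183), *Nmnat3* (0.0186) and *Slc22a21* (0.0370), and for *Cfb* they were *Cxcl1* (0.00649), *Gm10664* (0.0136) and *4931440P22Rik* (0.0189). *C2* lay nearest to *Glrb* (0.0122), *Phactr2* (0.0126) and *Foxl2* (0.0159), and *Cd59a* to *Ttc39c* (0.00376), *Pcyt1a* (0.00696) and *Vgll4* (0.00749). *Cd59a* had 3165 genes within 0.25 and *C2* had 949, so that their profiles were common ones, and that of *C3* was the rarest. The added 1 CPM narrows the ratios of low genes such as *Cxcl1* (45, 19 and 108 counts), and nearness over 3 libraries is a description.

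In each blastocyst library *Cd55*, *Cd59a*, *Cfb* and *Cfi* had fewer TPM than in any luminal library, and *C4b* had more. In the control blastocysts *Cd59a* had 18.5 TPM, *Cd55* had 10.7, *C2* had 5.58, *Cfb* had 2.49, *C3* had 2.07 and *C4b* had 1.47. *Cfi* had 0, 3 and 0 counts, which is at or under the floor of 3 counts (0.157 CPM in control), and it was not detectable at this depth. Summed over the 7 members the level was 40.8, 42.4 and 50.3 TPM in control, eKO and rLif-treated eKO blastocysts, below the lowest luminal sum of 181 TPM. Without *Cd55* and *Cd59a* the blastocyst sums were 11.6, 14.9 and 9.81 TPM, lowest with rLif. The membrane shields were the highest members in each of the 3 blastocyst libraries. *C2* had similar levels in the control libraries of both tissues (4.25 TPM in the luminal layer), and *C3* in the eKO libraries was higher in blastocysts (1.25 TPM) than in the luminal layer (0.526 TPM).

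No member was called between blastocysts of eKO and control females, where 3.15% of genes were called, 1.29% higher and 1.86% lower. The nearest was *C4b*, with 67 and 144 counts and an eKO to control ratio of 1.07 on the log2 scale (interval 0.64 to 1.51). *C3* had 90 and 55 counts (log2 ratio -0.75, interval -1.26 to -0.25). The intervals of *Cfb*, *C2* and *Cd55* spanned 0, with log2 ratios of 0.43, 0.30 and 0.17, and *Cd59a* had a ratio of -0.29 (interval -0.54 to -0.03).

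Between blastocysts of rLif-treated eKO and control females 1 of the 6 members that reached 10 counts, *C3*, was called, where 4.94% of genes were called, 0.948% higher and 3.99% lower. It had 29 counts with rLif against 90 in control, or 1.49 against 4.72 CPM, and was 3.16-fold lower (log2 ratio -1.66, interval -2.32 to -1.04). The 3 blastocyst libraries ran from control through eKO to rLif-treated eKO in falling order of *C3*, and the interval of eKO (2.12 to 3.66 CPM) lay below that of control (3.80 to 5.80 CPM) and met that of rLif-treated eKO (0.999 to 2.14 CPM). Some markers of uterine tissue had the same order, among them *Krt19* (1401, 241 and 108 counts), *Foxa2* (103, 61 and 26 counts) and 5 of the 10 stroma markers, such as *Col3a1* (122, 60 and 28 counts). The sums of these marker lists did not have that order. They were 169, 175 and 165 CPM for stroma, 7854, 8179 and 7809 CPM for luminal epithelium and 116, 118 and 132 CPM for gland. The sums include *Krt8*, *Krt18*, *Pdgfra* and *Sox17*, which were also listed as trophectoderm or primitive endoderm markers. Between rLif-treated eKO and control 4 stroma, 2 luminal epithelium and 2 gland markers were called lower with rLif. The part of uterine tissue in the *C3* call was not tested. *Cfb* had the opposite order, with 58, 80 and 102 counts, and its ratio of rLif-treated eKO to control was 0.79 (interval 0.31 to 1.28), not called. *Cd55* (230, 265 and 324 counts) and *Cd59a* (283, 238 and 403 counts) were highest with rLif, with log2 ratios against control of 0.47 (interval 0.22 to 0.72) and 0.48 (interval 0.26 to 0.71), neither of them called.

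Between rLif-treated and untreated eKO blastocysts 1 of the 6, *C4b*, was called, where 3.75% of genes were called, 0.914% higher and 2.83% lower. It had 67, 144 and 37 counts in control, eKO and rLif-treated eKO, or 3.51, 7.37 and 1.90 CPM, and the eKO library was the highest with an interval clear of the others. *C4b* was 3.87-fold lower with rLif than in eKO (log2 ratio -1.95, interval -2.51 to -1.42). *C2* had 125, 158 and 94 counts and a ratio of -0.74 in the same comparison (interval -1.13 to -0.36, not called). Macrophage and leukocyte markers had the same order of libraries as *C4b* in sum, with levels of 66.3, 140 and 29.1 CPM over 12 of 12 markers, none at 0 in all 3 libraries, and *Lyz2* had 976, 2128 and 289 of those counts. *C1qb* (100, 163 and 25 counts) and *C1qc* (62, 140 and 40 counts) had that order too, and both were called lower with rLif than in eKO, whereas *C1qa* (104, 97 and 34 counts) was highest in control. Of the 12 markers 7 had the order of *C4b*, *Aif1*, *Cx3cr1* and *Mrc1* were highest in control, and *Cd14* and *Cd68* were lowest in control. The part of such cells in the blastocyst *C4b* values was not tested. Neither the *C3* nor the *C4b* blastocyst call was made by edgeR's exact test with a dispersion of 0.1.

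**Figure D4:**
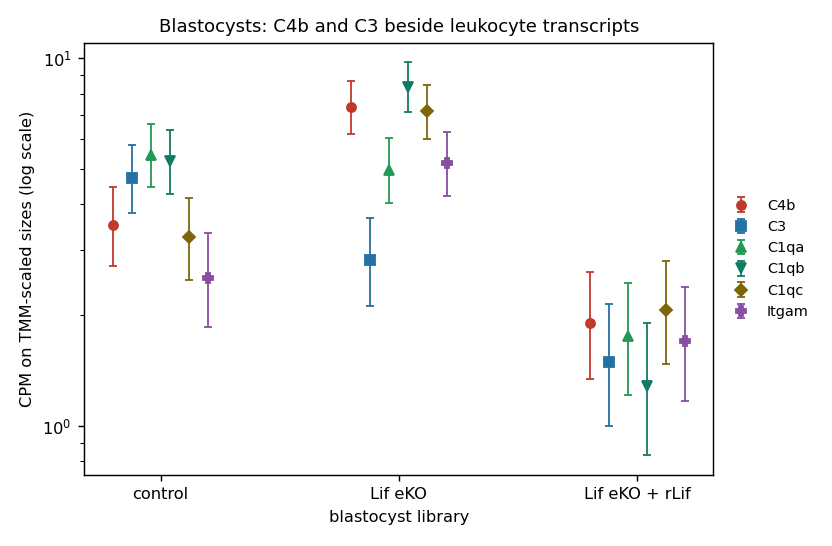
CPM (log axis) of *C4b* and *C3* in the 3 blastocyst libraries beside the C1q chains and the leukocyte integrin *Itgam*, with exact Poisson 95% intervals as bars. *C4b*, *C1qb*, *C1qc* and *Itgam* are highest in the eKO library, and *C3* is highest in control at 4.72 CPM.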

How the data were processed

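Per the labels and the study's methods, pooled RNA went into SMART-seq v4 libraries, and the authors aligned paired-end reads to GRCm38/mm10 with HISAT2 and counted them with featureCounts (Subread 2.0.0). Each tissue has its own deposited table, whose entries are whole, unnormalized counts per gene. The methods name the unit as RPKM, which the values are not. Strand setting, annotation release and the handling of reads with several matches are not given in the sources used here.

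A gene was analysed in a tissue when its libraries together held at least 10 counts (15694 luminal, 14873 blastocyst). Scaling was by TMM in edgeR 4.0.16 under R 4.3.3. Total counts ranged from 18996158 to 28460465. Ratios carry Clopper-Pearson and levels Poisson 95% intervals (scipy 1.17.1), which cover counting error of reads only. Reads were not tagged by molecule, so copies of the same molecule are not told apart and the intervals may be too narrow. The floor for a count of 0 was 3 counts. With 1 library per group no p-value is given, and the edgeR quasi-likelihood test could not be fitted. DESeq2 1.42.0 size factors, total counts, other count minimums, a log2 limit of 2 and edgeR's exact test at a fixed dispersion of 0.1 were alternatives. The ratio rule was run on simulated counts that held counting error alone, as its intervals assume. That run held no spread between animals or libraries, so it is no test of the calls given here.

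The members, gene lists and marker lists were chosen with earlier results of these data known. Genes named were the members, their paralogs, *Lif*, the 20 listed complement genes whose called intervals lay farthest from 0, and for each member the 3 nearest luminal profiles. Of these, 2 genes are not reported here by name. Genes outside this rule were named after their values were seen. Of 134 list entries, 132 were found, 7 of them under an older symbol in RefSeq.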

Additional observations from a re-analysis of the deposited data

Results flagged for a closer look

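Some members had a ratio beyond 0 in opposite directions in the luminal layer and in blastocysts under the same comparison, by intervals that cover counting error only. With 1 library per group, the difference between the tissues was not tested. *C3* for rLif-treated eKO against eKO was 3.51 in the luminal layer and -0.92 in blastocysts on the log2 scale, 4.42 apart. *C4b* for rLif-treated eKO against eKO was 2.07 and -1.95, 4.03 apart, and against control it was 4.35 and -0.88, 5.23 apart, with 2 counts in the luminal control library and a luminal ratio of 2.33 once its paralog was added. *Cd55* for rLif-treated eKO against control was -0.62 and 0.47, a difference of -1.09. *Cd59a* went opposite ways in all 3 comparisons, with luminal minus blastocyst differences of 0.61 (eKO to control), -0.79 (rLif-treated eKO to control) and -1.40 (rLif-treated eKO to eKO), none of its ratios being called.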

How the results depend on the processing

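Of the 39 ratios of members with a value, 39 kept their direction and their side of the limit with DESeq2 size factors, with no minimum count and with a minimum of 50 counts, and 38 did with total counts, where luminal *C4b* for rLif-treated eKO against eKO was not called. Scaling by total counts moved the median log2 ratio of all luminal genes to -0.17 for rLif-treated eKO against control and to -0.12 against eKO. With *C4b*, *Cd55* and *Cd59a* summed with their paralogs, an alternative chosen after seeing the data, all 18 ratios kept direction and call, while luminal *C4b* went from 2.27 to 0.40 for eKO against control and from 4.35 to 2.33 for rLif-treated eKO against control. Dividing by length or not left 5 of 7 members at the same rank in the luminal control library. Direction held in each of these, and the calls depended on the limit and on an assumed spread, as their construction implies.

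With a log2 limit of 2, 1 member (*C3*) was called for luminal eKO against control in place of 3 and 1 (*C3*) for rLif-treated eKO against eKO in place of 6. For the blastocyst comparisons of rLif-treated eKO with control and with eKO it was 0 in place of 1 each. With edgeR's exact test at a dispersion of 0.1 the member count was 2 in place of 6 for luminal rLif-treated eKO against eKO, and 0 in place of 1 for each of those blastocyst comparisons.

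Listed complement genes called in the luminal layer for eKO against control, rLif-treated eKO against control and rLif-treated eKO against eKO numbered 11, 4 and 12. They were 4, 2 and 4 with a log2 limit of 2 and 6, 2 and 6 with the exact test, and the middle one was 2 with a minimum of 50 counts. In blastocysts they numbered 3, 7 and 11, became 1, 1 and 2 with a log2 limit of 2 and 1, 0 and 1 with the exact test, and with a minimum of 50 counts the first was 1 and the last 7.

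Over all 15694 luminal genes the numbers were 2704, 1438 and 2456, with 868, 295 and 750 at a log2 limit of 2. They were 1250, 342 and 1109 with the exact test. At a minimum of 50 counts they were 2235, 1049 and 1960 of 13782 genes. The blastocyst numbers were 468, 734 and 557 of 14873 genes, with 100, 149 and 93 at a log2 limit of 2. They were 65, 124 and 58 with the exact test, and 210, 447 and 325 of 12362 genes at a minimum of 50 counts. No paired analysis was possible because each group was 1 library and no test was made.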

Other observations

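Complement genes outside the members were also read in blastocysts, where 31 of 50 reached 10 counts. Between eKO and control 3 were called, all higher in eKO, where 3.15% of all genes were called. Between rLif-treated eKO and control 2 were higher and 4 lower, where 4.94% of all genes were called. Between rLif-treated and untreated eKO 1 was higher and 9 were lower, where 3.75% of all genes were called. *C5ar1*, the C5a receptor of myeloid cells, had 0, 61 and 17 counts in control, eKO and rLif-treated eKO, so that eKO exceeded control by at least 19.8-fold against a floor of 3 counts in control, with its own count taken as exact, and the exact interval began at a log2 ratio of 3.97. *Cd93* had 24, 42 and 2 counts, and its ratio of rLif-treated eKO to eKO was -4.38 (interval -7.48 to -2.44). Of the genes called lower with rLif than in eKO, *C5ar1*, *Cd93*, *Itgam*, *Vsig4*, *Fcna*, *C1qb* and *C1qc* are known from leukocytes or vessel lining. Counts were low for *Vsig4* (7, 10 and 0) and *Fcna* (6, 33 and 7). *Gm5077* (*C1s2*), listed with the classical and lectin pathway components, was also called lower, with 3, 10 and 0 counts. The part of leukocytes or vessel lining in these calls was not tested. *Hc*, which encodes C5, was the gene called higher, with 7, 1 and 14 counts.

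*Masp2*, a protease of the lectin pathway, had 2, 18 and 19 counts in these libraries and was called higher in both eKO groups than in control. *Cr1l* was the most abundant membrane regulator in blastocysts by counts, with 793, 863 and 691, and was not called in a blastocyst comparison. *C1qbp* had 4533, 4480 and 5113 counts there and was not called either. *Serping1*, so variable in the luminal layer, had 250, 301 and 260 counts in blastocysts.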
